A study of Mus musculus with 20 samples.

Results

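A set of 10 genes that mark or drive the epithelial-mesenchymal transition (EMT) was followed through the RNA-seq of tumor cells sorted from mouse bone metastases, namely Vim, Cdh1, Cdh2, Epcam, Zeb1, Zeb2, Snai1, Snai2, Twist1 and Esrp1. They are 10 of 17104 genes with an identifier in any of the 3 deposited tables. Vim was chosen by its rise in Resist vs. Naive, so its values in that comparison are given as a description, without a test, and the other 9 genes were listed beside it by their role. The tables of Naive and Resist tumors and of Resist-Mac tumors each list 8 of the 10 genes, that of Naive-Mac tumors lists all 10, and 7 are in every table.

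The tumor cells were MycCaP-Bo, a bone-tropic line from the Myc-driven MycCaP mouse prostate cancer, grown in bone after intracardiac injection and sorted as CD45-negative cells that carry the fluorescent protein iRFP. Mice in all groups were 4-6 wk old at injection. Naive tumors received vehicle. Resist tumors received the antiandrogen enzalutamide at 30 mg/kg daily for 18 d, and are labelled treatment-resistant. Resist-Mac tumors received the same and, in the last 4 d, clodronate liposomes at 1 mg per mouse, which kill phagocytic cells such as macrophages, and Naive-Mac tumors received clodronate liposomes without enzalutamide. Each group has 5 libraries, each from the cells of 3 pooled mice, of 1 cell line. The labels put Naive and Resist in batch 1, Resist-Mac in batch 2 and Naive-Mac in batch 3. Depletion and batch can therefore not be told apart, and only Resist vs. Naive lies within 1 batch and 1 table.

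Epithelial cells are held together by E-cadherin (Cdh1) and carry the surface adhesion molecule Epcam, and the splicing factor Esrp1 keeps epithelial isoforms of their transcripts. In EMT, transcription factors of the Snail (Snai1, Snai2), Zeb (Zeb1, Zeb2) and Twist (Twist1) families repress these genes, and cells gain the intermediate filament protein vimentin (Vim) and often N-cadherin (Cdh2). Snail and Zeb proteins bind the E-box letters CACCTG, which read CAGGTG on the other strand.

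The promoter windows of 2 members are shown, that of Vim as the gene with the high values and that of Epcam as an epithelial gene at or near 0 where it is listed. Each is the 250 bases before the transcription start, 5′ to 3′ on the gene's strand, from RefSeq on build GRCm38.p6, at chr2:13574061-13574310 on the plus strand for Vim and chr17:87635729-87635978 on the plus strand for Epcam. Capitals mark CACCTG or CAGGTG (searched on both strands) and TATAAA (searched on the gene's strand).
Vim: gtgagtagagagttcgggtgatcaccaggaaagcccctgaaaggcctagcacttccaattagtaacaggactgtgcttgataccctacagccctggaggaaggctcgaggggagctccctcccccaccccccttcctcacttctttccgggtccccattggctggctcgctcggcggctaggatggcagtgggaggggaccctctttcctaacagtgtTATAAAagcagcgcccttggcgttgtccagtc
Epcam: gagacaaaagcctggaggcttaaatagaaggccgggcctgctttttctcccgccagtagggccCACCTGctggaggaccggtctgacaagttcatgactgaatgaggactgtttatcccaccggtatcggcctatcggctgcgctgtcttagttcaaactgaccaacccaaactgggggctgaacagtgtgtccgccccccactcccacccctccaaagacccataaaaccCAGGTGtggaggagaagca
The Vim window held TATAAA 32 bases before the start and no E-box of these letters. The Epcam window held 2 E-boxes, CACCTG at 187 and CAGGTG at 19 bases before the start. Windows for 5 of the 10 genes were at hand. Of those not shown, the Snai1 window held CACCTG at 126 bases before the start and no TATAAA. The Twist1 window held TATAAA at 126 bases and no E-box of these letters, and the Zeb2 windows held neither. Of 32851 promoter windows of the same length, 17.2% held CACCTG or CAGGTG and 7.6% held TATAAA. A match describes the letters only.

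Expression was given in FPKM, fragments scaled for the length of the transcript and the size of the library, so levels can be compared between genes. Read counts were not analysed here and the absolute depth of each library is unknown. The steps between low values put the depth of libraries 2-5 at 0.84 to 1.08 times that of library 1 of their group. The sorted cells carried prostate epithelial markers at a summed 677 to 1261 FPKM per library over the 14 markers of that list, with the tight junction gene Cldn3 the highest of them in the mean of every group. Krt18, Cldn7 and Tmprss2, which also mark this epithelium, stayed under 1 FPKM in every library that lists them. The mouse gene Myc measured 86.5 to 198 FPKM in Naive, Resist and Resist-Mac but 5.82 to 10.05 FPKM in Naive-Mac, a gap that goes with every comparison against Naive-Mac. Whether this gene's values measure the oncogene that drives the line cannot be told here. Of the ribosomal protein genes listed, which every cell uses, 2 of 76 in the Naive and Resist table and 1 of 75 in the Naive-Mac table averaged under 0.1 FPKM, so values at or near 0 are given here as listed and not as absence. Leukocyte markers were found in a sort that excludes CD45-positive cells, and 6 libraries, all of them depleted, held more than 2000 FPKM in 13 neutrophil markers.

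Vim was the only member at a high level. In Naive tumors it measured 12.71, 6.83, 11.11, 18.93 and 42.77 FPKM in libraries 1-5, and in Resist tumors 121.30, 118.64, 102.22, 67.54 and 56.47 FPKM. The groups did not overlap, with Naive 5 the highest Naive library and Resist 5 the lowest Resist library. The means were 18.5 ± 14.3 FPKM in Naive and 93.2 ± 29.7 FPKM in Resist (SD, n = 5 each), a ratio of 5.05, and the difference of 2.47 on the log2(FPKM + 1) scale was the 5th largest rise among 10119 genes. Mgp, Aif1l and Cps1 came just above Vim, with differences of 2.88, 2.82 and 2.50, and the receptor tyrosine kinase Axl just below it, with 2.14. These values chose Vim and test nothing.

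**Figure D1:**
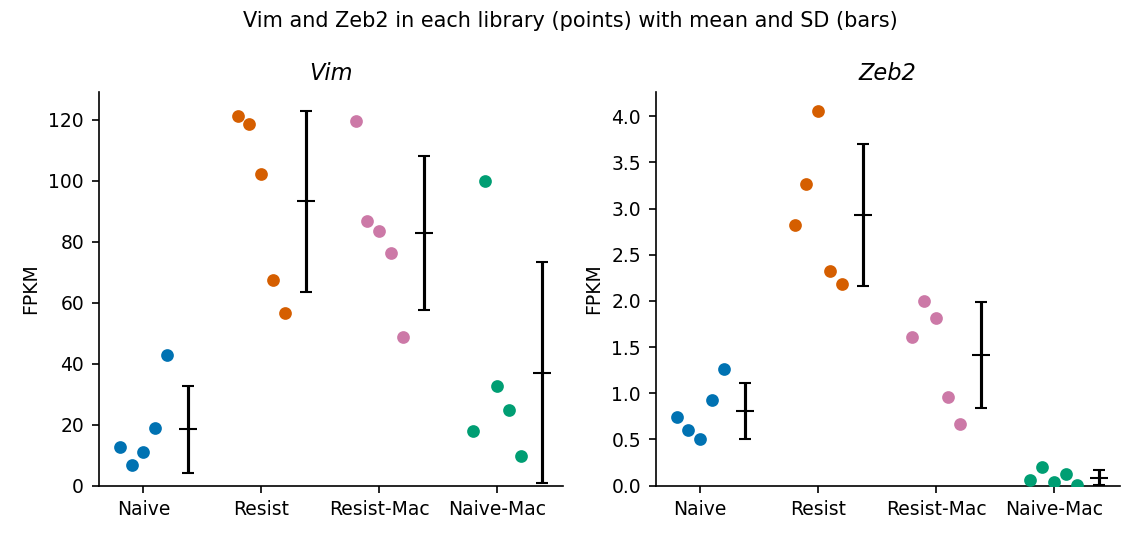
FPKM of Vim and Zeb2 (y axes) in each library (points) of the 4 groups (x axis), with the mean and SD of 5 libraries as bars. Every Resist library lies above every Naive library for both genes, and Naive-Mac library 2 stands apart for Vim at 99.91 FPKM.

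The only EMT transcription factor of the 10 genes to reach 1 FPKM in Naive or Resist tumors was Zeb2, a zinc-finger repressor. It measured 0.74, 0.60, 0.51, 0.93 and 1.26 FPKM in Naive libraries 1-5 and 2.82, 3.27, 4.06, 2.32 and 2.18 FPKM in Resist libraries 1-5. All Resist libraries were above all Naive libraries. The means were 0.808 ± 0.298 and 2.93 ± 0.765 FPKM (SD, n = 5 each), a ratio of 3.63, and the exact two-sided permutation test gave p = 0.00794, the smallest that 5 against 5 libraries allow. The log2 change was 1.11 (SE 0.16, limma, adjusted p = 0.000865 over 10119 genes), past the rule used here for a call, which asks for a fold above 1.5 as well as an adjusted p below 0.05. With a Naive mean under 1 FPKM, Zeb2 passed the filter of a mean of 1 FPKM through its Resist values, so its test without any filter is given too, with a log2 change of 1.11 (SE 0.15, adjusted p = 0.00325 by limma). For comparison, 5.25% of all genes tested were called higher in Resist and 1.11% lower, and 8.45% had every Resist library above every Naive library.

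The Snail, Twist and Zeb1 factors stayed near the floor of the table. Snai1 averaged 0.19 FPKM in Naive and 0.216 FPKM in Resist (exact permutation p = 0.73), with ranges of 0.06 to 0.45 and 0.05 to 0.49 FPKM. Snai2 was listed at 0 in all Resist libraries and in 4 of 5 Naive libraries, with 0.04 FPKM in the other. Twist1 was above 0 in 2 Naive libraries and 1 Resist library, at 0.05 to 0.06 FPKM. Zeb1, the close relative of Zeb2, ranged from 0.01 to 0.08 FPKM in Naive and from 0.01 to 0.14 FPKM in Resist (exact permutation p = 0.31). None of these 4 genes passed the filter on low values, and differences of a few hundredths of an FPKM lie at the rounding step of 0.01 FPKM.

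The epithelial genes among the members, Cdh1, Epcam and Esrp1, did not give a level from which a fall could be measured. Cdh1 was listed at 0.02, 0, 0.02, 0 and 0.02 FPKM in Naive libraries 1-5 and at 0.02, 0.03, 0.05, 0.06 and 0.03 FPKM in Resist libraries 1-5. Its mean was thus 0.012 FPKM in Naive and 0.038 FPKM in Resist, with the higher values in Resist (exact permutation p = 0.0317, not adjusted for the 30 such tests made over genes and comparisons). Without the filter on low values, limma gave Cdh1 an adjusted p of 0.186. Epcam and Esrp1 have no row among the genes listed for these 10 libraries. The mesenchymal cadherin Cdh2 was at most 0.03 FPKM, with means of 0.012 FPKM in Naive and 0.008 FPKM in Resist (exact permutation p = 0.762). No exchange of Cdh1 for Cdh2 was therefore measurable at these levels.

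**Figure D2:**
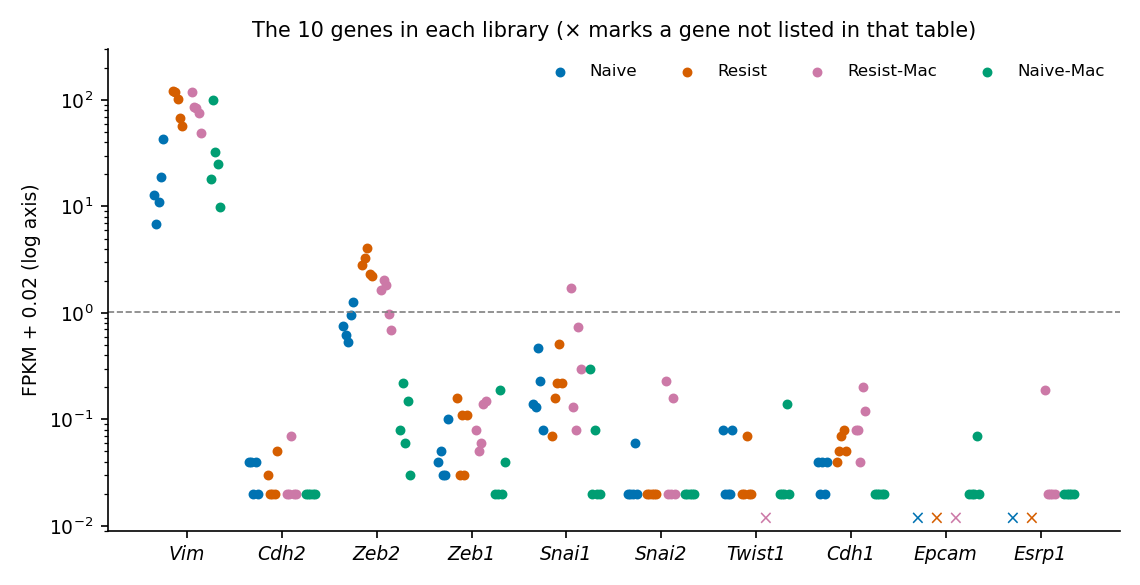
FPKM plus 0.02 (y axis, log scale) of the 10 genes (x axis) in every library of the 4 groups, with a dashed line at 1 FPKM. Vim and Zeb2 lie above the line in every Resist library, Snai1 does so in 1 Resist-Mac library, and the other 7 genes stay below it in every library in which they are listed.

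Of 6 genes with roles like those of the low members, Esrp2, Krt8 and Fn1 were well above the filter, while Cdh3, Cdh11 and Krt18 were not. Esrp2, the paralog of Esrp1, averaged 58.1 ± 3.0 FPKM in Naive and 52.8 ± 4.2 FPKM in Resist (SD, n = 5 each), and limma put its log2 change at -0.14 (SE 0.07) with an adjusted p of 0.171. The luminal keratin Krt8 averaged 317 ± 89.0 FPKM and 190 ± 76.5 FPKM (limma log2 change -0.79, SE 0.28, adjusted p = 0.0678), and its partner Krt18 stayed at or under 0.23 FPKM. The P-cadherin gene Cdh3 was listed at 0 in all 10 libraries. The mesenchymal cadherin Cdh11 ranged from 0 to 0.07 FPKM in Naive and from 0.03 to 0.25 FPKM in Resist, under the filter. Fibronectin (Fn1) averaged 969 ± 157 FPKM in Naive and 1378 ± 168 FPKM in Resist, with an adjusted p of 0.0103 by limma and a log2 change of 0.52 (SE 0.12) that stayed under the fold limit.

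A total of 7 lists of other EMT genes by role were counted in the same fit, and for each the median log2 change is given beside that of all genes tested, 0.03. Of 34 epithelial junction and polarity genes, 19 were tested, of which 1 was called higher and 3 lower, with a median of -0.01. Without the fold limit, 1 was higher and 6 lower. Under that limit, Cldn3 fell from 363 ± 37.6 to 254 ± 39.5 FPKM without overlap (limma log2 change -0.52, SE 0.11, adjusted p = 0.00637). Llgl2, called lower, fell from 15.1 ± 1.8 to 8.95 ± 1.46 FPKM, also without overlap (limma log2 change -0.70, SE 0.11, adjusted p = 0.00133). Rab25, a GTPase of epithelial recycling endosomes, fell from 81.2 ± 4.0 to 46.6 ± 13.2 FPKM (limma log2 change -0.84, SE 0.16, adjusted p = 0.00475), and no Resist library reached the lowest Naive one. The tight junction gene Cldn4 averaged 105 ± 53.0 FPKM in Naive and 53.2 ± 27.9 FPKM in Resist (log2 change -0.98, adjusted p = 0.0451 by limma), with overlap through Resist 1 at 101.94 FPKM. This call was lost without any 1 library other than Resist 1. Over all fits without 1 library, that without Resist 1 included, the change was -1.24 to -0.72 and the adjusted p up to 0.0996 by limma. Tjp3, which encodes a tight junction scaffold, rose by 0.765 on the log2 scale (SE 0.175, adjusted p = 0.011 by limma). Of 18 epithelial identity regulators, 12 were tested, 1 was called higher (Gata3, log2 change 0.97, limma adjusted p = 0.00131) and 1 lower (Ovol1, -0.735, adjusted p = 0.00619), with a list median of -0.06. Ovol1 encodes an epithelial repressor of EMT factors and Gata3 a luminal transcription factor.

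On the mesenchymal side, 30 of 53 mesenchymal program genes were tested, 16 were called higher and 0 lower, and the list median was 0.82. The share of all genes called higher was 5.25%, and this list too was chosen with earlier results of these data known. The count was 15 higher under median-ratio scaling and under quantile normalization, 14 with the length and GC correction and 15 to 19 without any 1 library. It was 12 of 20 tested at a mean of 5 FPKM or more and 8 with a fold change over 2. The list median was 0.70 to 0.94 under the scalings and a pseudocount of 0.1, and 0.40 without the filter on low values, where 16 of 49 genes were called higher. Axl rose from 1.58 ± 0.65 to 10.6 ± 3.6 FPKM (log2 change 2.14, SE 0.25, limma adjusted p = 0.000253), without overlap. Col5a1, a fibrillar collagen chain, rose from 1.84 ± 0.81 to 8.35 ± 2.57 FPKM (log2 change 1.73, SE 0.22, limma adjusted p = 0.000462), also without overlap. The collagen genes of stromal cells Col1a1, Col1a2 and Col3a1 had log2 changes of 0.935 (SE 0.523), 0.895 (SE 0.461) and 0.83 (SE 0.351), each above the list median, and were not called (adjusted p of 0.227, 0.19 and 0.115 by limma). Col1a1 ranged from 1.18 to 3.61 FPKM in Naive and from 0.17 to 13.52 FPKM in Resist. Of 24 further EMT transcription factors, 16 were tested, 3 were called higher (Twist2 and Foxq1 among them) and 0 lower, with a median of 0.24, and 2 were called lower beside these 3 with quantile normalization and with the length and GC correction. Twist2, the paralog of Twist1, rose from 3.15 ± 1.17 to 7.56 ± 2.65 FPKM (log2 change 1.05, SE 0.24, limma adjusted p = 0.0113), and its lowest Resist library, at 4.80 FPKM, was above its highest Naive library, at 4.38 FPKM.

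None of 5 tested genes among 15 cadherins and catenins and none of 12 tested among 23 intermediate filament and linker genes other than Vim was called, with medians of 0.05 each, and 1 filament or linker gene was called lower with median-ratio scaling or the length and GC correction. Among 28 genes of TGF-beta and activin signaling, a pathway that can drive EMT, 21 were tested, 4 were called higher and 1 lower, with a median of -0.01. The ligand Tgfb3 rose from 17.9 ± 2.5 to 38.2 ± 9.0 FPKM (log2 change 1.02, limma adjusted p = 0.0016), while the ligand Tgfb2 fell from 81.1 ± 5.4 to 36.1 ± 12.4 FPKM (log2 change -1.21, adjusted p = 0.00148). The latent TGF-beta binding protein Ltbp1 rose by a log2 change of 1.21 (limma adjusted p = 0.000298).

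**Figure D3:**
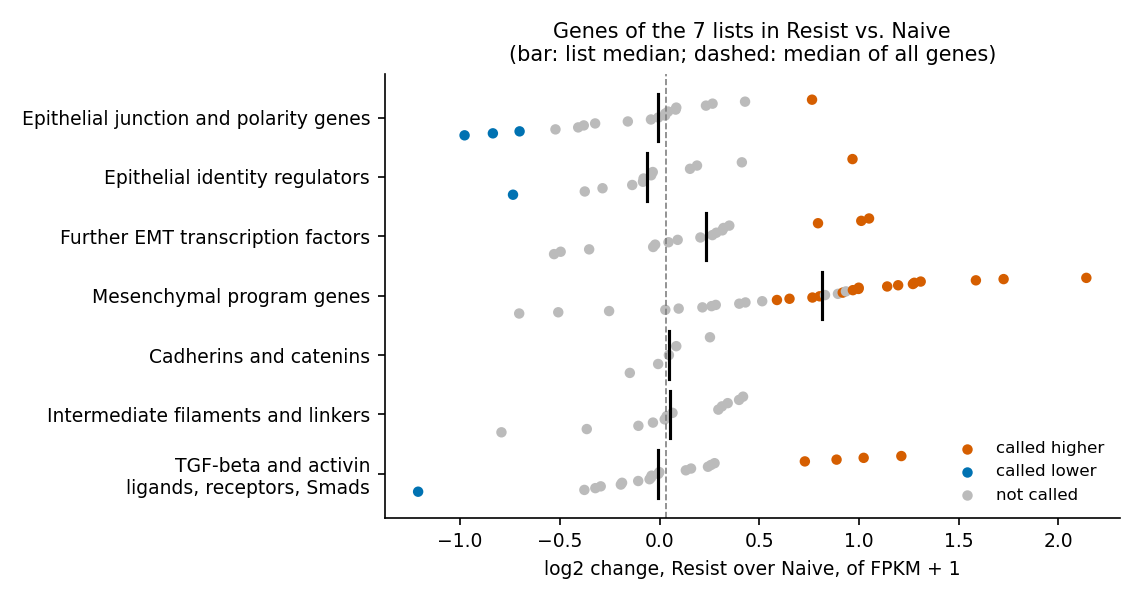
Log2 change of FPKM + 1 from Naive to Resist (x axis) of each gene tested in 7 lists (rows), colored by its call, with the list median as a bar and the median of all genes, 0.03, as a dashed line. In the mesenchymal list 16 of 30 genes were called higher and 0 lower, and in the junction list 1 of 19 higher and 3 lower. Of all genes, 5.25% were called higher and 1.11% lower.

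Vim and Zeb2 are also expressed by stromal cells and leukocytes, so the marker sums of such cells are given beside them. In these bulk libraries fewer cells of a type and less RNA per cell cannot be told apart. The 8 pan-leukocyte markers summed to 22.5 to 62.3 FPKM per Naive library and to 11.1 to 27.9 FPKM per Resist library, and the 15 macrophage markers to 24.90 to 128 FPKM and 13.03 to 73.6 FPKM. The 15 markers of osteoblasts and stromal cells summed to 5.39 to 10.6 FPKM in Naive and to 2.65 to 33.5 FPKM in Resist. The medians were 5.49 and 14.12 FPKM, and Resist 3, 4 and 5, at 19.49, 14.12 and 33.52 FPKM, lay above every Naive library. Among these markers, Col1a1 averaged 1.84 and 5.95 FPKM and Pdgfra 1.48 and 1.13 FPKM in Naive and Resist. Bglap and Sp7 were at 0 in every Naive library and at most 0.21 FPKM in Resist. Resist 2 lay below every Naive library in its stromal, macrophage, neutrophil and endothelial sums, and Resist 1 below every Naive library in its macrophage and neutrophil sums. Resist 1 was not low in endothelial and stromal markers, with 5.88 FPKM of the former against 1.59 to 3.96 FPKM in Naive and 9.83 FPKM of the latter, above 4 of 5 Naive libraries. Over all Resist libraries, the median sum of the 12 endothelial markers was 5.88 FPKM against 3.05 FPKM in Naive. The erythroid markers summed to 107.13 to 200.38 FPKM in Resist and 54.07 to 107.75 FPKM in Naive, with 200.38 and 164.6 FPKM in Resist 1 and 2. These had the highest Vim of the Resist libraries, 121.30 and 118.64 FPKM, with Zeb2 at 2.82 and 3.27 FPKM. The highest Zeb2, 4.06 FPKM, was in Resist 3, which had sums of 8.41 FPKM in endothelial, 19.49 FPKM in stromal and 493 FPKM in neutrophil markers. The part of such cells in Vim, Zeb2 and the mesenchymal list was not tested. With Resist 1 and 2 alone against the 5 Naive libraries, a check added after seeing the data, the log2 change of Zeb2 was 1.17 (limma, adjusted p = 0.00391) and 14 mesenchymal program genes were called higher and 1 lower. This fit does not test the part of other cells either.

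**Figure D4:**
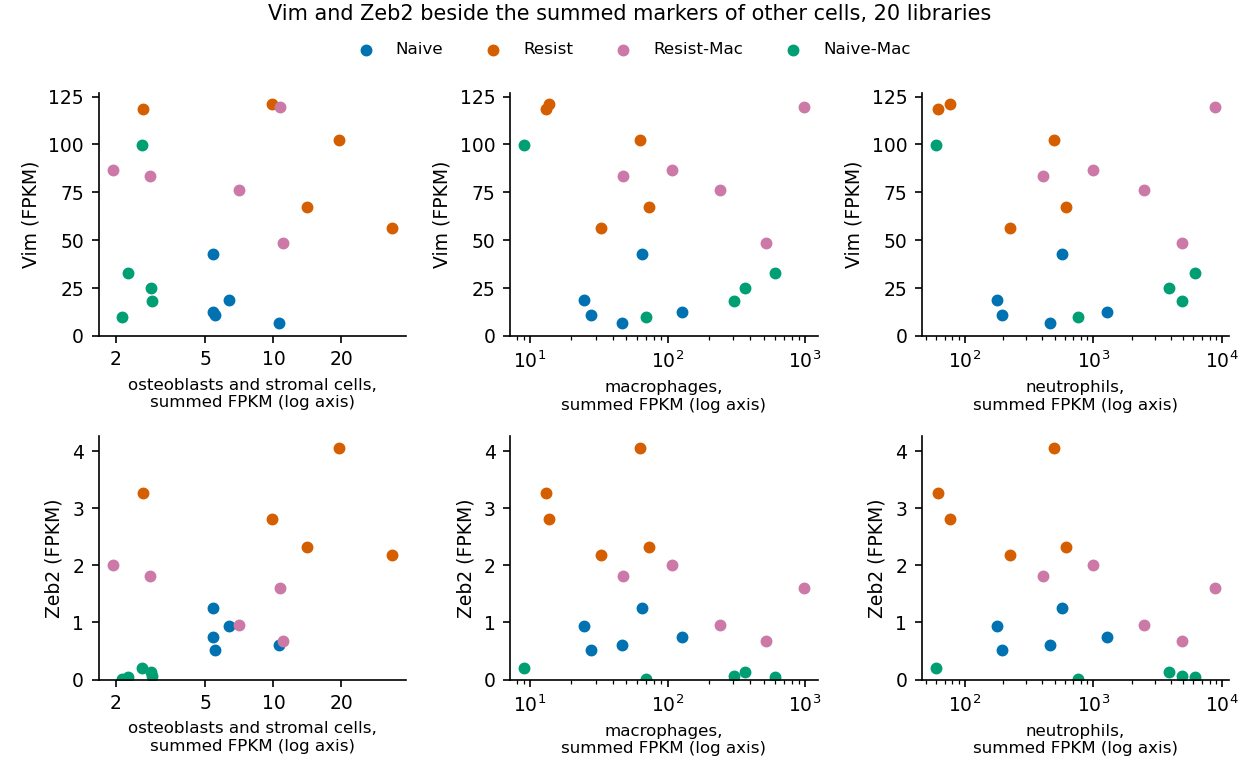
FPKM of Vim (top) and Zeb2 (bottom) against the summed FPKM of markers of osteoblasts and stromal cells, macrophages and neutrophils (x axes, log scale) in the 20 libraries. Resist libraries 1 and 2 have low macrophage and neutrophil sums and the highest Vim of their group, with stromal sums of 9.83 and 2.65 FPKM. The highest Zeb2, 4.06 FPKM, is in Resist library 3, with a stromal sum of 19.49 FPKM.

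Across the 10 Naive and Resist libraries, the genes whose log2(FPKM + 1) followed Vim most closely among 10118 genes were P3h1 (Pearson r = 0.98), Slc12a4 (0.96), Dnajc1 (0.96), Dab2 (0.96) and Zeb2 (0.96). The libraries are shared by all these correlations and fall into 2 groups that differ in Vim, which alone gives high values. After the group means were removed, r was 0.90, 0.83, 0.89, 0.81 and 0.79 for the same genes. The genes were picked as the closest among 10118 in these same 10 libraries, which also chose Vim. Their r within groups can therefore be raised by the choice, and it tests no link to Vim. Naive 5, the Naive library with the highest Vim, also had the highest Zeb2 of its group, 1.26 FPKM. No such search was made for Epcam, which is not listed in that table.

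Resist-Mac vs. Naive-Mac asked whether Vim was also higher in enzalutamide-treated tumors when both groups were depleted of macrophages, in libraries that had no part in the choice of Vim. The 2 groups come from separate batches and from tables that were normalized separately. Vim measured 119.41, 86.63, 83.42, 76.34 and 48.77 FPKM in Resist-Mac libraries 1-5 and 18.01, 99.91, 32.72, 24.85 and 9.88 FPKM in Naive-Mac libraries 1-5. In all, 4 of 5 Naive-Mac libraries were below every Resist-Mac library, and Naive-Mac 2 lay above all but Resist-Mac 1. The means were 82.9 ± 25.3 and 37.1 ± 36.1 FPKM (SD, n = 5 each), a ratio of 2.24. The log2 change was 1.51 (SE 0.45, limma, adjusted p = 0.0103 over 9760 genes) and was called. The exact permutation test on mean FPKM gave p = 0.0556 and that on log2(FPKM + 1) p = 0.0397. In this comparison 37.2% of all genes were called higher in Resist-Mac and 9.0% lower, and the median log2 change of all genes was 0.34. With median-ratio scaling, which set that median to -0.05, the log2 change of Vim was 1.06 with an adjusted p of 0.0593 by limma. The neutrophil markers summed to 408 to 8834 FPKM in Resist-Mac and 59.7 to 6192 FPKM in Naive-Mac, and the macrophage markers to 47.5 to 974 FPKM and 9.08 to 609 FPKM, with Naive-Mac 2 the lowest in both. In the 2 libraries of each group under 2000 FPKM of neutrophil markers, the log2 change of Vim was 1.38 (adjusted p = 0.118, limma).

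Zeb2 showed the same order in the depleted groups, at low levels. It measured 1.61, 2.00, 1.82, 0.96 and 0.67 FPKM in Resist-Mac libraries 1-5 and 0.06, 0.20, 0.04, 0.13 and 0.01 FPKM in Naive-Mac libraries 1-5, without overlap (exact permutation p = 0.00794). Its mean over both groups was under the filter. Without the filter the log2 change was 1.12 (SE 0.15, limma, adjusted p = 0.000169), and 36.0% of the genes tested had every Resist-Mac library above every Naive-Mac library. The longest Zeb2 transcript has 9124 bases, and genes of 8000 bases or more had a median log2 change of 1.36 in this comparison. The Zeb2 change is thus not above that of long genes at large, and no value with a length correction is given for it here. Cdh1 was listed at 0.02 to 0.18 FPKM in Resist-Mac and at 0 in all Naive-Mac libraries (exact permutation p = 0.00794). Snai1 reached 1.68 FPKM in Resist-Mac 1 and 0.72 FPKM in Resist-Mac 4, with the other 8 libraries at or under 0.28 FPKM (exact permutation p = 0.0794). Resist-Mac 1 also had the highest neutrophil sum, 8834 FPKM, and the part of such cells in its Snai1 was not tested. Esrp1 was above 0 only in Resist-Mac 1, at 0.17 FPKM, Epcam only in Naive-Mac 4, at 0.05 FPKM, and Cdh2 only in Resist-Mac 3, at 0.05 FPKM. Snai2 was above 0 in 2 Resist-Mac libraries, at 0.14 and 0.21 FPKM, and in 0 Naive-Mac libraries. Zeb1 was at most 0.17 FPKM in both groups, and Twist1 is not listed for Resist-Mac.

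The list counts of this comparison stand against 37.2% of all genes called higher and 9.0% lower. Among the lists, 18 of 28 mesenchymal program genes tested were called higher and 0 lower (median 1.03), 13 of 16 further EMT transcription factors higher and 0 lower (median 1.11), and 9 of 12 epithelial identity regulators higher and 0 lower (median 1.22). Junction genes split into 8 higher and 2 lower of 19 (median 0.42), cadherins and catenins into 3 higher and 0 lower of 5, intermediate filament and linker genes into 7 higher and 3 lower of 12, and TGF-beta and activin genes into 12 higher and 0 lower of 21. Epithelial regulators such as Klf4 (log2 change 2.68, SE 0.14) and Grhl2 (1.79, SE 0.20) thus rose beside mesenchymal genes such as Fn1 (2.37, SE 0.28) and Col5a1 (2.22, SE 0.24). The median change of all genes differed by transcript length. Genes with a longest transcript under 2000 bases had a median log2 change of -0.29 and genes of 8000 bases or more a median of 1.36. After fitting out length and GC content, the calls were 7 higher and 0 lower for mesenchymal genes, 3 and 1 for EMT transcription factors, 8 and 0 for identity regulators, 2 and 0 for cadherins and catenins, 6 and 5 for junction genes (median -0.01), 1 and 4 for filament and linker genes (median -0.08) and 5 and 1 for TGF-beta and activin genes. With median-ratio scaling they were 13 and 2 for mesenchymal genes, 9 and 0 for EMT transcription factors, 7 and 0 for identity regulators, 3 and 0 for cadherins and catenins, 6 and 6 for junction genes, 3 and 5 for filament and linker genes and 7 and 1 for TGF-beta and activin genes. Vim kept its call with the length and GC correction, at 1.36 (adjusted p = 0.0282, limma).

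**Figure D5:**
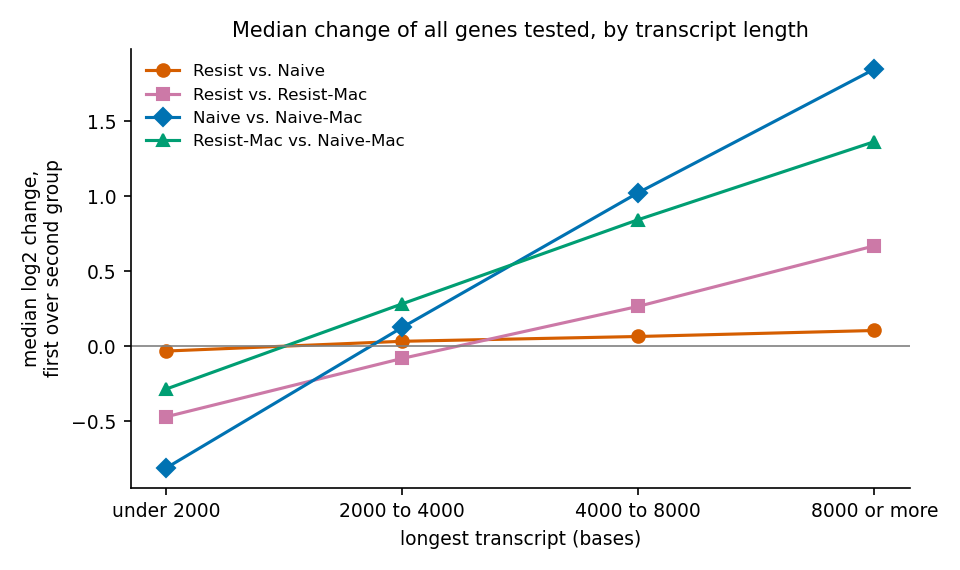
Median log2 change of all genes tested (y axis) in 4 bins of longest transcript length in bases (x axis), for the 4 comparisons. Resist vs. Naive stayed between -0.03 and 0.10, while comparisons with a depleted group rose with length, to 1.85 in Naive vs. Naive-Mac.

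In Resist vs. Resist-Mac, the comparison of resistant tumors without and with macrophage depletion, Vim overlapped widely between the groups. The means were 93.2 ± 29.7 and 82.9 ± 25.3 FPKM (SD, n = 5 each), and 4 of 5 Resist libraries lay within the Resist-Mac range of 48.77 to 119.41 FPKM. The log2 change was 0.16 with a 95% interval of -0.39 to 0.70 (limma, adjusted p = 0.636), and the exact permutation test gave p = 0.579. Changes anywhere within this 95% interval remain possible, and the Resist libraries are those that chose Vim. Zeb2 was lower in Resist-Mac, at 1.41 ± 0.571 against 2.93 ± 0.765 FPKM, with the highest Resist-Mac library at 2.00 and the lowest Resist library at 2.18 FPKM. The ratio of Resist to Resist-Mac was 2.08 (exact permutation p = 0.00794) and the log2 change 0.72 (SE 0.20, limma, adjusted p = 0.0108), a call. Of all genes, 9.71% were called higher in Resist, 12.0% lower, and 12.3% had every Resist library above every Resist-Mac library. The Zeb2 transcript is long, 9124 bases in its longest form against 2926 for Vim, and genes of 8000 bases or more had a median log2 change of 0.67 here. With the length and GC correction, Zeb2 gave 0.23 (adjusted p = 0.437, limma), and with Resist-Mac 2 and 3 alone, the Resist-Mac libraries under 2000 FPKM of neutrophil markers, 0.41 (adjusted p = 0.117, limma).

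The remaining members gave no measurable difference between Resist and Resist-Mac. Snai1 averaged 0.216 FPKM in Resist and 0.57 FPKM in Resist-Mac (exact permutation p = 0.325), Cdh1 0.038 and 0.084 FPKM (p = 0.175) and Zeb1 0.068 and 0.076 FPKM (p = 0.865). Cdh11, at 0.45 to 1.04 FPKM in Resist-Mac, was above its Resist range of 0.03 to 0.25 FPKM in every library, under the filter. Without the filter, 10 cadherins and catenins were tested, and 1 was called higher and 1 lower in Resist. Of the lists, 6 of 31 mesenchymal program genes were called higher in Resist and 1 lower, led by Fn1 (log2 change 1.25, SE 0.14) and Axl (1.08, SE 0.40), with Emp3 lower (-1.37). The Axl call was lost without Resist 1, 2, 3 or 4 or Resist-Mac 4 or 5 (adjusted p up to 0.0978, limma). It was also lost without the filter on low values, with a pseudocount of 0.1 and with quantile normalization. With the Resist-Mac libraries under 2000 FPKM of neutrophil markers, the calls of Axl and Emp3 were both lost. Leaving out 1 library gave 4 to 9 mesenchymal genes higher and 1 to 3 lower. Further EMT transcription factors gave 2 higher (Tead1 and Runx2) and 1 lower (Snai3) of 17, junction genes 5 higher and 0 lower of 19, identity regulators 3 higher and 0 lower of 12, and TGF-beta and activin genes 4 higher and 0 lower of 21. Of 5 cadherins and catenins 1 was higher (Ctnnd1), and 6 of 12 intermediate filament and linker genes were higher and 0 lower, led by the linkers Dst (2.04, SE 0.20) and Macf1 (1.46, SE 0.15), whose longest transcripts span 23279 and 23495 bases. With the length and GC correction, 3 filament and linker genes, 4 mesenchymal genes, 2 identity regulators and 1 junction gene were called higher, and 0 genes of these lists lower. The calls of Axl, Emp3, Ctnnd1, Macf1, Tead1, Runx2 and Snai3 were lost, and 0 EMT transcription factors, 0 cadherins and catenins and 0 TGF-beta and activin genes were called.

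Between Naive and Naive-Mac, Vim did not pass the test. The means were 18.5 ± 14.3 and 37.1 ± 36.1 FPKM, all 5 Naive libraries lay below Naive-Mac 2, and the log2 change of Naive over Naive-Mac was -0.80 with a 95% interval of -1.96 to 0.36 (limma, adjusted p = 0.187; exact permutation p = 0.373). Zeb2 was higher in Naive, 0.51 to 1.26 FPKM against 0.01 to 0.20 FPKM, without overlap (exact permutation p = 0.00794), and without the filter its log2 change was 0.72 (SE 0.10, adjusted p = 0.00011 by limma). Here 37.5% of all genes were called higher in Naive, 22.1% lower, and 40.7% had every Naive library above every Naive-Mac library, so that this pattern was common among genes. Genes of 8000 bases or more had a median log2 change of 1.85. These genes passed the filter, while Zeb2 was under it, with a ratio of mean FPKM of 9.18. Its log2 change is therefore not set against that median. Snai1 averaged 0.19 FPKM in Naive and 0.068 FPKM in Naive-Mac (exact permutation p = 0.214), and Cdh1 and Cdh2 were at most 0.02 FPKM in Naive and 0 in Naive-Mac. In the lists, 15 of 27 mesenchymal genes were called higher in Naive and 3 lower, 11 of 16 EMT transcription factors higher and 1 lower (Twist2), 11 of 12 epithelial identity regulators higher and 0 lower, 9 of 19 junction genes higher and 3 lower, 4 of 5 cadherins and catenins higher and 0 lower, 8 of 12 filament and linker genes higher and 3 lower, and 13 of 21 TGF-beta and activin genes higher and 1 lower. The median of the mesenchymal list was 0.85 and became -0.27 with the length and GC correction, under which 6 were called higher and 4 lower, beside 3 higher and 2 lower of the EMT transcription factors and 7 higher and 1 lower of the junction genes. The same correction gave 7 higher and 0 lower for identity regulators, 2 and 0 for cadherins and catenins, 5 and 1 for filament and linker genes and 9 and 1 for TGF-beta and activin genes. With median-ratio scaling junction genes gave 7 higher and 5 lower, and filament and linker genes 4 higher and 4 lower, while mesenchymal genes gave 12 and 4, EMT transcription factors 10 and 2, identity regulators 9 and 0, cadherins and catenins 3 and 0 and TGF-beta and activin genes 10 and 1.

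Set in order, mean Vim was 93.2 FPKM in Resist, 82.9 in Resist-Mac, 37.1 in Naive-Mac and 18.5 in Naive, across tables that were normalized separately. Resist and Resist-Mac did not differ beyond their spread, nor did Naive-Mac and Naive. Mean Zeb2 was 2.93 FPKM in Resist, 1.41 in Resist-Mac, 0.808 in Naive and 0.088 in Naive-Mac, and the ranges of Resist-Mac and Naive overlapped. The difference between the log2 rises in Resist vs. Naive and in Resist-Mac vs. Naive-Mac was 0.96 (SE 0.65) for Vim, given without a test. For Zeb2 it was -0.002 (SE 0.24, limma, adjusted p = 0.996), with 51.9% of all genes called in this contrast. That value turned with the processing, to -1.24 (adjusted p = 0.0383, limma) with a pseudocount of 0.1 and to 0.93 (adjusted p = 0.0101) with the length and GC correction.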

How the data were processed

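RNA of sorted MycCaP-Bo tumor cells was sequenced on a BGISEQ-500 as paired ends in 20 libraries. Gene-level FPKM were deposited by the authors in 3 tables. Values of Naive and Resist tumors were deposited as log2(FPKM + 1) and converted to FPKM, which gave 2 decimals for 100% of values within 0.001. The submitters' processing notes name Bowtie2, with no version, and the build mm9. Genes were named by Entrez identifier with a RefSeq table, and the authors' 752 BGI_novel genes were removed.

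The 10 members and the 7 lists were chosen with earlier results of these data known. Tests on log2(FPKM + 1) used limma 3.58.1 (R 4.3.3, variance trend on) and every gene that averaged 1 FPKM or more in the groups of a comparison. A call needed a fold over 1.5 and, after Benjamini-Hochberg adjustment over all genes tested, p below 0.05. The contrast of the 2 rises used all 20 libraries and no fold limit. Members were also compared one by one on mean FPKM by exact permutation (two-sided), in 30 tests whose p-values were not adjusted. Genes named from the lists were the members' partners Esrp2, Cdh3, Cdh11, Krt8, Krt18 and Fn1 and, of each list, up to 2 called genes with the largest change in each direction. Foxq1, Col1a1, Col1a2, Col3a1, Myc and the marker genes were named after their values were seen, and some list and marker genes are not reported here. The code was tested on simulated data with 200 changed genes. Transcript length and GC content matched 96.8% of identifiers and were removed by splines with 4 degrees of freedom. Alternatives were other pseudocounts, filters, scalings, call rules, a joint fit, a prior without trend, a replicate block and leaving out each library. No columns of samples outside the series were found.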

Additional observations from a re-analysis of the deposited data

Results flagged for a closer look

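Vim in Naive-Mac replicate 2, at 99.91 FPKM, lay far from the other 4 libraries of its group, which ranged from 9.88 to 32.72 FPKM. The gap to the next library was 0.746 of the group's range, above Dixon's limit of 0.71 for 5 libraries. It was the 1 such library among 10 groups of member values averaging 0.1 FPKM or more, and chance alone flags about 1 in 20 groups. The same library had the lowest sums of macrophage markers (9.08 FPKM) and of neutrophil markers (59.7 FPKM) of all 20 libraries, the highest Axl of its group (6.13 FPKM, against 0.59 to 1.23 FPKM) and the highest Zeb2 of its group (0.20 FPKM). The part of these values in its Vim level was not tested. Without it, the log2 change of Vim in Resist-Mac vs. Naive-Mac was 1.97 and the exact permutation p on mean FPKM was 0.0159.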

How the results depend on the processing

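The count of members called, without Vim in Resist vs. Naive and in the contrast of the 2 rises, was 1 (Zeb2) in Resist vs. Naive and 1 (Zeb2) in Resist vs. Resist-Mac. It was 0 between the naive groups, 1 (Vim) between the depleted groups and 0 in the contrast. Leaving out each library in turn gave 1 to 1, 1 to 1, 0 to 0, 1 to 1 and 0 to 0. A filter at a mean of 5 FPKM, under which Zeb2 was not tested, gave 0 in both comparisons with Resist. In Resist vs. Resist-Mac the count was also 0 with the length and GC correction, with a fold change over 2 and with libraries under 2000 FPKM of neutrophil markers, the last chosen after seeing the data. Naive vs. Naive-Mac gave 1, Zeb2, without the filter and with all groups in one fit. Resist-Mac vs. Naive-Mac gave 2 in these settings and 0 with median-ratio scaling, and Vim was 1.38 (adjusted p = 0.118, limma) in libraries under 2000 FPKM of neutrophil markers, with 2 libraries a group. The contrast gave 1 after the length and GC correction and also with 0.1 as pseudocount.

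Zeb2 in Resist vs. Naive kept its call in every setting in which it was tested, with log2 changes of 0.93 to 1.76, and of 1.02 to 1.20 without each library. The Zeb2 contrast changed sign to 0.02 with median-ratio scaling, 0.19 with quantile normalization and 0.93 with the length and GC correction, and ranged from -0.13 to 0.09 without each library. Vim in Resist vs. Resist-Mac ranged from -0.02 to 0.32 and Snai1 in Resist vs. Naive from -0.0425 to 0.091 FPKM without each library, with -0.0065 FPKM without Naive replicate 5. Of all values recomputed, 609 were rated the same, which for a count need not mean an identical number. Another 65 counts were rated as moved, 17 values turned, 5 were rated weaker and 7 stronger. The stronger ones include exact permutation tests whose p fell below 0.05 without 1 library, which is not a call. In Resist-Mac vs. Naive-Mac these were 2 for Vim and 2 for Snai1.

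Replicate numbers are shared by the groups, but same-numbered libraries did not deviate together (r of -0.16 to -0.03 in Resist vs. Naive, and no comparison with every pair over 0.1). The replicate block left all 5 counts as they were, with Zeb2 at 1.11 (adjusted p = 0.00892, limma) in Resist vs. Naive and Vim at 1.51 (adjusted p = 0.00246) in Resist-Mac vs. Naive-Mac.

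Depth is unknown, so no counting error could be given for the members under 1 FPKM, and an absent gene cannot be told from an undetected one. Batch and depletion cannot be told apart outside Resist vs. Naive. Median-ratio scaling moved the median of all genes from 0.23 to -0.05 in Naive vs. Naive-Mac.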

Other observations

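Wwtr1, which encodes the transcriptional coactivator TAZ and was named after its values were seen, is on the list of further EMT transcription factors but averaged under 1 FPKM over the Naive and Resist libraries and was not tested. It measured 0.02, 0.13, 0.27, 0.26 and 0.08 FPKM in Naive libraries 1-5 and 1.82, 1.28, 1.57, 1.87 and 0.69 FPKM in Resist libraries 1-5, without overlap. In Resist-Mac it ranged from 0.16 to 1.02 FPKM and in Naive-Mac from 0.13 to 0.55 FPKM.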
